A study of Mus musculus with 8 samples.

Results

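The cells described here are the 830 of 22441 sequenced CD45+ cells to which the authors' deposited annotation gave the cell type Stem-Progenitor. They made up the whole of clusters 11 (653 cells) and 24 (177 cells) of 29 clusters, and they came from all 4 libraries. The study asked how beta cells that lack a working Rnls gene, which encodes the enzyme renalase, alter the immune cells that infiltrate them. NIT-1 is an insulin-producing line derived from a beta cell tumour of a NOD mouse, the strain that develops autoimmune diabetes. NIT-1 cells, either WT or Rnls mutant, were placed under the skin of opposite flanks of NOD.scid mice, which cannot make T or B cells of their own but keep myeloid cells and NK cells. All hosts then received diabetogenic splenocytes of NOD mice, so T cells in the grafts came from the transfer, whereas NK and myeloid cells of the host and of the donor cannot be told apart in these data.

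Grafts were taken at day 10 or day 17 after transfer, their living CD45+ cells were sorted, and 4 grafts of a genotype were marked with hashtag antibodies and pooled into 1 droplet library per genotype and day. The 4 groups were WT day 10 (421 of 7617 cells annotated Stem-Progenitor), Rnls mutant day 10 (330 of 6652), WT day 17 (19 of 2690) and Rnls mutant day 17 (60 of 5482). Each library held 1 genotype at 1 day, so day, genotype and library cannot be told apart, and the grafts within a library were the replicates. The WT and mutant grafts of a day came in pairs from 4 mice, but which grafts shared a mouse was not given in the sources used here, so the tests below treat grafts as independent unless a test by mouse is named. The files hold unique molecular identifiers (UMIs), each standing for 1 captured transcript end, and a level below is given as CPM, the UMIs of a gene scaled to 1000000 UMIs of the cells summed. A whole graft held 1742746 to 9729233 UMIs, and 12 grafts held at least 10 Stem-Progenitor cells, with 125481 to 1755297 UMIs between them per graft. Between libraries, 42 cell barcodes occurred in more than 1, and 1 of the 830 cells had such a barcode.

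A cell that divides copies its DNA in S phase with the help of the MCM helicase, PCNA and a burst of histone synthesis, and separates its chromosomes after G2 phase with topoisomerase II (Top2a), the kinetochore and the mitotic kinesins. T cells recognise antigen through a receptor built of Trac and Trbc chains and the CD3 chains, and clonal division after antigen contact is their hallmark. NK cells carry instead the activating receptor NKp46 (Ncr1) and receptors of the Klr families, and kill, as CD8+ T cells do, by releasing perforin and granzymes. A haematopoietic stem or progenitor cell is recognised by Kit, Cd34, Gata2, Meis1 and Hoxa9, or by early granule enzymes such as Mpo and Elane.

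The label was first set against these markers. Cd34 had 1 UMI in all 830 cells, and Gata2, Meis1, Hoxa9, Elane and Prtn3 had 0. Kit stood at 1.86 CPM in cluster 11 and 12.5 CPM in cluster 24, below the 42.6 CPM of annotated NK cells. Myb, which both progenitors and activated lymphocytes use, reached 77.1 CPM in cluster 11 and 113 CPM in cluster 24, against 221 CPM in NK cells. Ctsg, a granule protease of neutrophil precursors, was found in cluster 24 at 84.9 CPM, but in 11.3% of its cells and without Mpo (0 UMIs) beside it. A list of 13 stem and progenitor genes summed to 107 CPM in cluster 11, above the 62.0 CPM of annotated T cells. In cluster 24 it summed to 220 CPM, against 268 CPM in NK cells. In each cluster 8 of the 13 genes had 0 UMIs, while 2 reached 10 CPM in cluster 11 and 3 in cluster 24. Most markers of stem and progenitor cells therefore did not bear out the name, and the cells are called below by their clusters.

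Summed over the 830 cells, genes of the cell cycle stood out, although 71 of the 177 cells of cluster 24 had no UMI of Mki67 or Top2a. The genes with the largest ratio of their level to that in all other cells included Hist1h1b, a linker histone made in S phase (1276 against 16.8 CPM), Pclaf, a partner of PCNA (993 against 21.4 CPM), Top2a (922 against 30.6 CPM) and Birc5, the survivin subunit of the chromosomal passenger complex (417 against 9.79 CPM). The other leading genes were Hist1h2ap and the granzymes Gzmc, Gzmd, Gzme, Gzmf and Gzmg. Because the clusters were made from these same genes, the values are a description and were not tested.

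The lineage markers separated the clusters. Cluster 11 was T cell-like, with Cd3e at 647 CPM and Trac at 488 CPM, against 1005 and 577 CPM in the annotated T cells of the same grafts (CD4, CD8 and regulatory T cells together). Beside Cd3e and Trac, the genes with the largest ratio to cluster 24 were Themis, a signalling protein of the T lineage (551 against 0.389 CPM), Tnfrsf4, the costimulatory receptor OX40 (397 against 1.56 CPM), Ifng (597 against 33.1 CPM), Lat, Cd5, Cd8b1, S1pr1 and Cd40lg. NK markers were low in cluster 11, with Ncr1 at 6.58 CPM and Klra7 at 0.286 CPM. The 7 genes of the NK list summed to 76.5 CPM there, and 1 of them reached 10 CPM. The sum was 75.6 CPM in annotated T cells and 4090 CPM in annotated NK cells.

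Cluster 24 was NK cell-like. Ncr1 stood at 277 CPM, Klre1 at 335 CPM, Klra7 at 344 CPM and Klri2 at 190 CPM, against 444, 500, 512 and 831 CPM in annotated NK cells. All 7 genes of the NK list summed to 1528 CPM, against 4090 CPM in annotated NK cells. The signalling adaptors Tyrobp and Fcer1g reached 1379 and 1072 CPM, against 12.4 and 25.7 CPM in cluster 11. Cd3e had 2 UMIs in the 177 cells and Trac 11, so the defining T cell markers were at or near 0. Other receptor chains were present, with Cd3g at 299 CPM, Trbc1 at 281 CPM and Trdc at 121 CPM, and annotated NK cells carried them at similar levels of 291, 303 and 210 CPM. Ptprc, which encodes the CD45 by which cells were sorted, was found in 99.4% of cluster 24 cells.

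**Figure D1:**
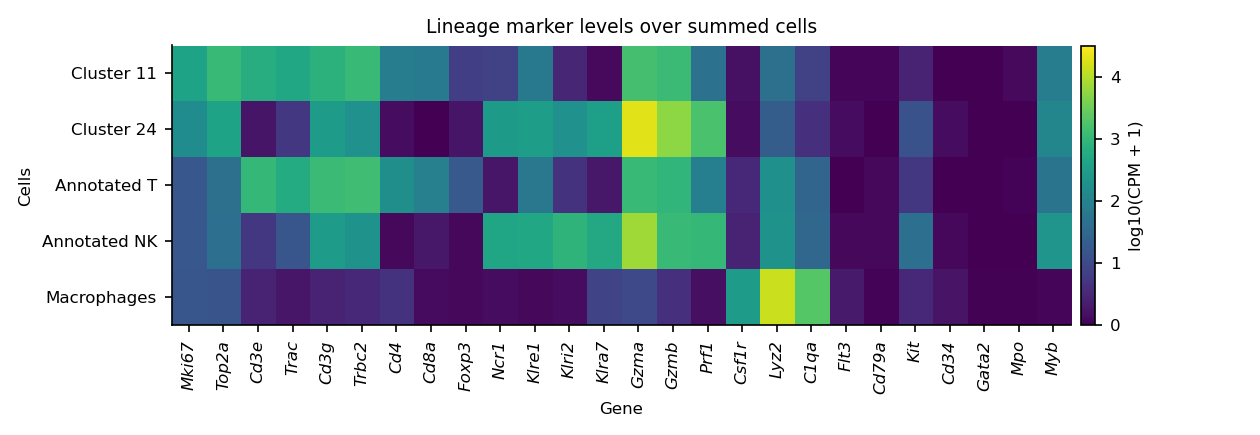
Heat map of summed levels, log10(CPM + 1), of 26 lineage, cytotoxic and cycle genes (one axis) in cluster 11, cluster 24, annotated T cells, annotated NK cells and macrophages (other axis). Cluster 11 shares the T cell genes with annotated T cells, cluster 24 shares the NK genes with annotated NK cells, and both carry Mki67 and Top2a, with the higher values of 408 and 1113 CPM in cluster 11.

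Counted cell by cell, the same separation held. Of cluster 11, 638 cells (97.7%) had a UMI of Cd3e or Trac, against 10 cells (5.65%) of cluster 24 and 4.42% of annotated NK cells. At least 3 UMIs of the NK list were found in 98.9% of cluster 24 cells, 10.4% of cluster 11 cells, 4.64% of CD8 T cells and 0.656% of CD4 T cells. The cells differed in depth, with a median of 8820 UMIs in cluster 11 and 12676 in cluster 24, against 2686 in annotated T cells and 2411 in NK cells. By these markers, 585 of the 830 cells (70.5%) had Cd3e or Trac without the NK list, 180 (21.7%) the NK list without Cd3e or Trac, 63 (7.59%) both and 2 neither. This rule was chosen after the data were seen, because a wider list of T cell genes also took in cells of cluster 24 through Cd3g and Trbc1 and placed 520 cells (62.7%) in T alone and 201 (24.2%) in both.

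Myeloid cells were not a lineage of these clusters. At least 3 UMIs of the myeloid list were found in 63 cells of cluster 11 (9.65%) and 6 of cluster 24 (3.39%), beside 99.5% of macrophages. Cells that should lack these transcripts had them too, 10.5% of CD4 T cells, 7.05% of CD8 T cells and 6.47% of NK cells, at median depths of 2823.5, 2555 and 2411 UMIs. The share in cluster 11 thus lay among these background shares at a greater depth, and that in cluster 24 below them. The macrophage receptor Csf1r, a defining marker, stood at 0.572 CPM in cluster 11 and 0.389 CPM in cluster 24, against 297 CPM in macrophages. None of the 830 cells had 3 UMIs of the B cell or the granulocyte list.

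Cluster 11 held CD4+ and CD8+ cells side by side. UMIs of Cd4 or Cd40lg without Cd8a or Cd8b1 were found in 319 cells (48.9%), the reverse in 229 cells (35.1%), both in 24 (3.68%) and neither in 81 (12.4%). Foxp3, the regulator of regulatory T cells, was found in 19 cells (2.91%), against 50.9% of annotated regulatory T cells and 0.267% of CD4 T cells. As a share of all CD4 and CD8 UMIs of the cluster, the CD8 genes made up 74.5, 48.9, 50.4 and 46.4% in the WT day 10 grafts and 62.4, 46.8, 55.8 and 49.4% in the mutant day 10 grafts. At day 17 the share was 35.3% in the WT graft with at least 10 cells and 33.3, 91.7 and 32.8% in the mutant grafts. The grafts overlapped between days (difference over both genotypes -10.4 percentage points, p = 0.349, exact permutation test, two-sided).

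The clusters also differed in how far they were in cycle. At least 2 UMIs of Mki67, the Ki-67 antigen of cycling cells, and Top2a together were found in 615 cells of cluster 11 (94.2%) and 90 of cluster 24 (50.8%), while 71 cells of cluster 24 (40.1%) had none. The corresponding shares were 2.84% of annotated T cells, 2.18% of NK cells and 1.94% of macrophages. After every cell was thinned to 1000 UMIs, the shares were 44.7% in cluster 11, 12.4% in cluster 24, 0.544% in T cells and 0.594% in NK cells. Of the 411 cells of the whole series with such UMIs after thinning, 314 (76.4%) carried the Stem-Progenitor label, and of the 1284 without thinning 705 (54.9%) did. Lists of 42 S phase and 52 G2/M genes gave the same order. Against a limit at the 95th percentile of annotated T and NK cells, 562 cells of cluster 11 (86.1%) were past both limits, 76 (11.6%) past the G2/M limit alone, 11 past the S limit alone and 4 past neither. In cluster 24, 59 cells (33.3%) were past both and 92 (52.0%) past neither.

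**Figure D2:**
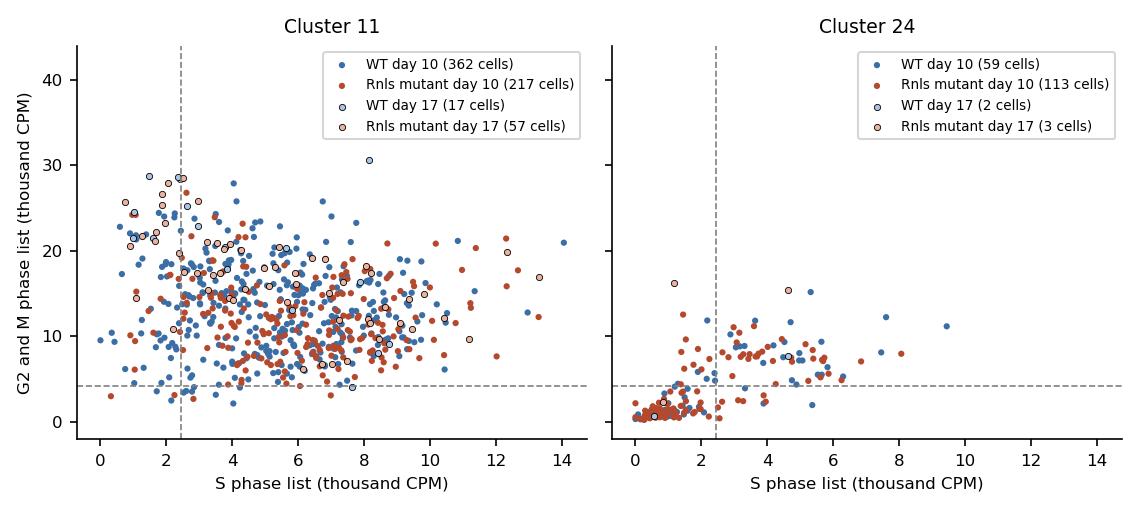
Per-cell level of the S phase list (horizontal axis) against the G2/M list (vertical axis), both in multiples of 1000 CPM, with 1 point per cell, coloured by group, for cluster 11 (left) and cluster 24 (right); dashed lines mark the 95th percentile of annotated T and NK cells. Most cluster 11 cells (562 of 653) lie above both lines, whereas 92 of the 177 cluster 24 cells lie below both.

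Cells of cluster 24 without Mki67 and Top2a carried the NK markers too. Ncr1 stood at 275 CPM in these 71 cells and at 270 CPM in the 90 cells with at least 2 such UMIs. Hist1h1b was at 5.30 against 770 CPM, and the G2/M list at 1094 against 7024 CPM. The granzymes Gzma (24658 against 17977 CPM), Gzmc (5344 against 2702 CPM) and Gzmf (2017 against 590 CPM) were at a higher level in the cells without Mki67 and Top2a UMIs. Cells were summed over grafts here, and the part of differences between grafts in this contrast was not tested. The 71 cells still held some cycle transcripts, such as Pclaf at 138 CPM. The median depth of these 71 cells was 9908 UMIs, against 15767.5 in the 90 cells, and cells were split by a measured value here, so no test was made.

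Beside the cycle genes, each cluster differed from the annotated cells it resembled. In cluster 11 the ribonucleotide reductase subunit Rrm2 (394 against 7.61 CPM) and the mitotic ubiquitin-conjugating enzyme Ube2c (428 against 10.3 CPM) were among the genes most above T cells. The genes most below T cells included Ccl5, a chemokine of effector and memory T cells (631 against 5704 CPM), Il7r, the interleukin 7 receptor (56.9 against 538 CPM), and the antiproliferative gene Btg1 (490 against 2804 CPM). In cluster 24, Ifitm1 (2159 against 41.4 CPM) and the metallothionein Mt1 (2753 against 114 CPM) were far above NK cells, while the chemokines Ccl5 (338 against 11761 CPM) and Ccl4 (52.2 against 1340 CPM) were far below.

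The largest contrast of cluster 24 lay in one stretch of chromosome 14. Granzymes are serine proteases that enter a target cell through perforin pores. In the GENCODE annotation of GRCm38, Gzme, Gzmd, Gzmg, Gzmn, Gzmf, Gzmc and Gzmb follow one another on the minus strand over 145 kb (chr14:56117626-56262260), with Ctsg (chr14:56099881-56102574) and the mast cell protease gene Mcpt8 (chr14:56082166-56085273) beyond Gzme. Gzma and Gzmk lie together on chromosome 13 and Prf1, which encodes perforin, on chromosome 10.

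Promoter sequences are shown for the 6 granzyme genes of the stretch that were found at 10 CPM or more in cluster 24, to let their likeness be seen. They are RefSeq promoters of GRCm38.p6, each printed 5′ to 3′ on the minus strand as the 150 bases before the annotated start. Capitals mark the RUNX core TGTGGT, and in Gzmb also the AP-1 word TGANTCA, searched on both strands. The coordinates are chr14:56120626-56120775 for Gzme, chr14:56132594-56132743 for Gzmd, chr14:56159580-56159729 for Gzmg, chr14:56211408-56211557 for Gzmf, chr14:56234658-56234807 for Gzmc and chr14:56262335-56262484 for Gzmb.
Gzme: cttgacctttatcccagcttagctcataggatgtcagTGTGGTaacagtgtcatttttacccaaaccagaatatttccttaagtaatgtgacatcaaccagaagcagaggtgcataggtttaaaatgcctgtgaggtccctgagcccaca
Gzmd: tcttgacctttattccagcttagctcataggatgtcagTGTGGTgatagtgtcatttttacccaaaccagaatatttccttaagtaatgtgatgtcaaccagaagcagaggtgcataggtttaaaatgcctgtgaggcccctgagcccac
Gzmg: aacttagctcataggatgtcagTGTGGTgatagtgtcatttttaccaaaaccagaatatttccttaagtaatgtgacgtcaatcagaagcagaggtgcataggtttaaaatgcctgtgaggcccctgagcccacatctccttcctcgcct
Gzmf: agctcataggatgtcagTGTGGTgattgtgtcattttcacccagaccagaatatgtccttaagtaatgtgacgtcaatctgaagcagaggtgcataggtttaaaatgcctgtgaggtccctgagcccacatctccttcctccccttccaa
Gzmc: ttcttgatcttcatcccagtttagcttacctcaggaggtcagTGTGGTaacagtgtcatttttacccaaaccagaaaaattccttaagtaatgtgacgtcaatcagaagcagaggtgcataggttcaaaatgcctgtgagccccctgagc
Gzmb: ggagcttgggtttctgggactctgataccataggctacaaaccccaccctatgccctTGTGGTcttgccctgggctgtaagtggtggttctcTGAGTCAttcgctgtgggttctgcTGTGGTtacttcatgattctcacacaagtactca
Likeness was taken over 250 bases before the start, as identical bases per position of an alignment, gaps included. Gzmd and Gzme shared 94.8%, Gzmf and Gzmg 83.2% and Gzmc and Gzmd 81.3%. The least alike pair without Gzmb was Gzmc and Gzmf (71.5%), whereas Gzmb shared 44.6 to 50.2% with the others. In the 250 bases upstream of the start, TGTGGT occurred in all 6 genes and in 14.2% of all 27025 promoters, and TGANTCA in 1 of the 6 and in 6.87%. A match of letters is a description of the sequence, not evidence of a bound factor.

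In cluster 24, 4 grafts held at least 10 cells, 1 of WT and 3 of mutant, all at day 10. Gzmc stood at 2214 CPM in the WT graft and at 3703, 3747 and 5123 CPM in the mutant grafts, and Gzmd at 3350 CPM and at 2416, 3146 and 2383 CPM. Gzme stood at 2149 CPM in the WT graft and at 1437, 3494 and 1408 CPM in the mutant grafts. Across all 16 grafts, annotated NK cells carried Gzmd at 0 to 47.5 CPM, Gzme at 0 to 12.9 CPM and Gzmc at 6.43 to 116 CPM, so no graft's NK cells overlapped with cluster 24. These genes lead by their ratio between cells that the clustering had already set apart. The lack of overlap is therefore a description and was not tested. Gzmg and Gzmf varied most among the grafts of cluster 24. Gzmg stood at 598 CPM in the WT graft and at 262, 4890 and 242 CPM in the mutant grafts, and Gzmf at 447 CPM and at 585, 2802 and 1183 CPM. Mutant graft 3, with 14 cells of the cluster, was the highest for both, and also for Ctsg at 219 CPM, against 104 CPM in the WT graft and 2.85 and 10.1 CPM in mutant grafts 1 and 4.

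The granzymes at the edge of the stretch and outside it were shared with other killer cells. Gzmb reached 4818 CPM in the WT graft and 5142, 5269 and 6531 CPM in the mutant grafts of cluster 24. Annotated NK cells ranged from 539 to 4647 CPM over 16 grafts, below all 4, and cluster 11 held 1189 CPM in all. Gzma ranged from 18900 to 25480 CPM in cluster 24 and from 4519 to 13530 CPM in NK cells. Perforin (Prf1) stood at 1686 CPM in the WT graft and at 1620, 1805 and 1694 CPM in the mutant grafts, within the 501 to 3193 CPM of NK cells. Spp1, the secreted phosphoprotein osteopontin, was found at 2015 CPM in the WT graft and at 1866, 4151 and 450 CPM in the mutant grafts, against 2.57 CPM in cluster 11.

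The sequences of Gzmd, Gzme, Gzmf and Gzmg overlap in the part that is read. Of the 31-base words in the last 400 bases of the transcripts, 24.3% at most were shared between Gzmd and Gzme, 15.1% between Gzmd and Gzmg and 11.1% between Gzmd and Gzmf. How counts were split among these 4 genes is therefore uncertain, whereas Gzmc and Gzmb shared no such word with another gene of the stretch. Cluster 11 lacked the group, with Gzmd at 0.715 CPM, Gzme at 0.572 CPM, Gzmf at 3.72 CPM, Gzmg at 0.143 CPM and Gzmc at 28.6 CPM.

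**Figure D3:**
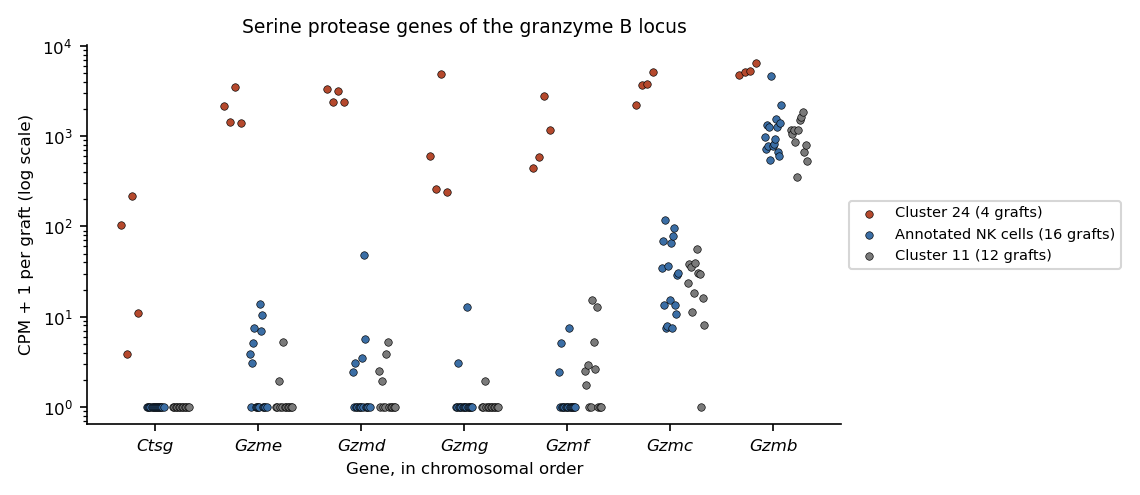
Levels (CPM + 1, log axis) of Ctsg, Gzme, Gzmd, Gzmg, Gzmf, Gzmc and Gzmb in their order along chromosome 14 (horizontal axis), with 1 point per graft for cluster 24 (4 grafts), annotated NK cells (16 grafts) and cluster 11 (12 grafts). Cluster 24 lies apart from both other groups from Gzme to Gzmc, and nearest to them at Gzmb, where its lowest graft is at 4818 CPM and the highest NK graft at 4647 CPM.

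From day 10 to day 17 the clusters became rare. Of all CD45+ cells, 5.72, 5.80, 5.69 and 4.88% were annotated Stem-Progenitor in the WT day 10 grafts and 7.75, 2.44, 4.41 and 5.00% in the mutant day 10 grafts. At day 17 the shares were 1.37, 0, 0.540 and 0.283% in the WT grafts and 0.828, 1.48, 1.31 and 0.366% in the mutant grafts. All day 17 grafts lay below all day 10 grafts. The 0 was 0 of 350 cells, which allows a share of up to 0.857%. The mean fell from 5.52 ± 0.431% to 0.549 ± 0.591% in WT and from 4.90 ± 2.19% to 0.994 ± 0.501% in mutant grafts (SD, n = 4 each). The difference over both genotypes was -4.44 percentage points (p = 0.000408, exact permutation test within genotypes, two-sided, 4900 assignments; adjusted p = 0.00476 over 35 share comparisons). When the WT and mutant graft of a mouse were kept together, p was 0.0286 for each of the 576 ways to pair the grafts (exact permutation test, two-sided), the smallest that 4 against 4 mice allow. This held for each of the day differences over both genotypes given below for either cluster, and before adjustment over the comparisons. Within 1 genotype the difference was -4.97 points in WT and -3.91 points in mutant, each with p = 0.0286 in the exact permutation test, the smallest that 4 against 4 grafts allow, and an adjusted p of 0.0667. WT and mutant grafts overlapped at both days (mutant minus WT -0.621 points at day 10, p = 0.6, and 0.446 points at day 17, p = 0.286, exact permutation tests, two-sided). Cells of any annotation with at least 2 UMIs of Mki67 and Top2a after thinning to 1000 UMIs fell by less, 1.59 points over both genotypes. By that count the days overlapped, with 1.26% in WT day 17 graft 1 and 1.25% in mutant day 10 graft 2. WT day 17 graft 2, without an annotated cell, had 1.14%.

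Both clusters shared in the fall. Cluster 11 made up 4.74% of CD45+ cells in WT and 3.21% in mutant grafts at day 10, and 0.504% and 0.945% at day 17 (difference over both genotypes -3.25 points, p = 0.000408, exact permutation test, two-sided). Cluster 24 made up 0.782% and 1.69% at day 10, and 0.0450% and 0.0492% at day 17, when it held 2 WT and 3 mutant cells (difference -1.19 points, p = 0.000408, exact permutation test, two-sided). Both had an adjusted p of 0.00476.

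**Figure D4:**
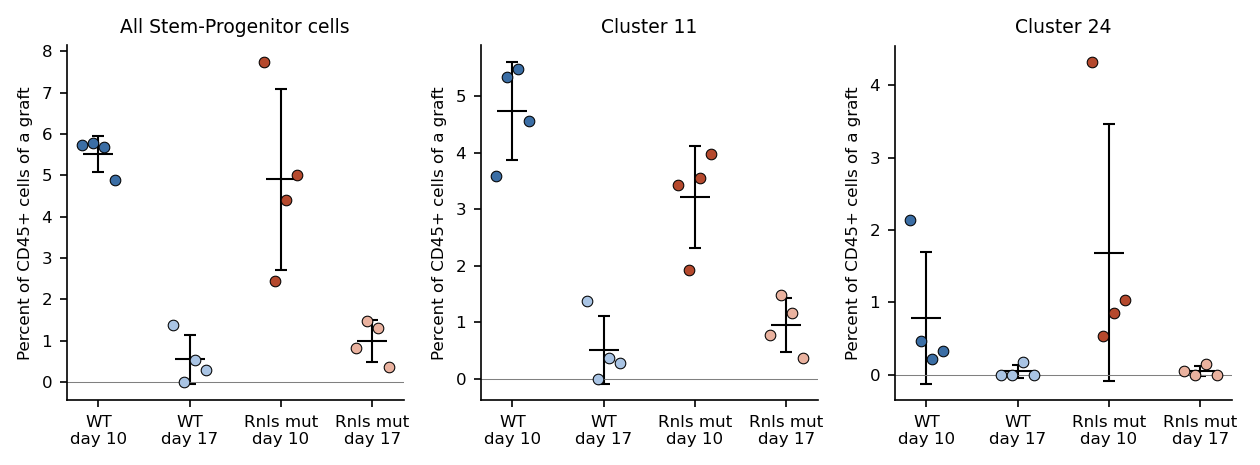
Share of CD45+ cells (vertical axis, percent) in each graft, with the mean and SD of the 4 grafts, for all Stem-Progenitor cells, cluster 11 and cluster 24 (panels) in the 4 groups (horizontal axis). All 8 day 17 grafts lie at 1.48% or below for all Stem-Progenitor cells, and all 8 day 10 grafts at 2.44% or above.

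Measured against the cells of its own lineage, each cluster also fell over both genotypes. As a share of cluster 11 and annotated T cells together, cluster 11 fell over both genotypes by 5.21 points (p = 0.00286, exact permutation test, two-sided, adjusted p = 0.02). The difference was -7.94 points in WT (p = 0.0286) and -2.47 points in mutant grafts (p = 0.2, exact permutation tests), where the days overlapped. At day 10 it made up 9.14 to 10.8% of these T cells in WT and 3.66 to 9.09% in mutant grafts, without overlap (p = 0.0286, exact permutation test, two-sided), but the adjusted p over the 35 share comparisons was 0.0667. As a share of cluster 24 and annotated NK cells, cluster 24 fell by 11.1 points over both genotypes (p = 0.00286, exact permutation test, two-sided, adjusted p = 0.02). Here the difference was -18.2 points in mutant (p = 0.0286) and -4.12 points in WT grafts (p = 0.2, exact permutation tests), where the days overlapped. Whether the genotypes differed in these falls was not tested. At day 10 it made up 10.6 to 36.4% in mutant and 2.03 to 13.3% in WT grafts, which overlapped (p = 0.0857, exact permutation test, two-sided). Mutant graft 1 alone gave 72 and WT graft 1 gave 40 of the 177 cells of cluster 24.

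Within the Stem-Progenitor cells the share of cluster 24 differed widely among grafts of 1 group. It ranged from 3.67 to 37.4% in WT and from 19.4 to 55.8% in mutant grafts at day 10. At day 17 it was 0% in the 1 WT graft with at least 10 Stem-Progenitor cells and 6.25, 0 and 11.1% in the 3 such mutant grafts. The difference between days over both genotypes was -18.7 points (p = 0.0857, exact permutation test, two-sided), and mutant exceeded WT at day 10 by 15.5 points (p = 0.314, exact permutation test, two-sided).

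Gene expression at the 2 days was compared in UMIs summed per graft over the 12 grafts with at least 10 cells, of which 4 were WT day 10, 4 mutant day 10, 1 WT day 17 and 3 mutant day 17. Of 9132 genes tested, 772 (8.45%) changed between days over both genotypes at an adjusted p of 0.05 in the quasi-likelihood test of edgeR (Benjamini-Hochberg adjustment over all genes), which gave all adjusted p-values of genes below. Of these, 317 (3.47%) were higher and 455 (4.98%) lower at day 17, whereas DESeq2 with its own size factors called 381 higher and 327 lower. The median log2 change of all genes was -0.13. Because cluster 24 had no graft with 10 cells at day 17, day changes were also tested in cluster 11 alone, where 649 of 8391 genes (7.73%) changed, 259 higher (3.09%) and 390 lower (4.65%), against 281 and 270 by DESeq2. Cluster 24 could not be compared between days.

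G2/M genes were higher at day 17 in the cells that remained. The clusters were made from such genes at both days, so the values of cycle genes describe cells already selected for them. The part of this selection in their day changes was not tested. In all Stem-Progenitor cells, 16 of the 52 G2/M genes rose and none fell, where 3.47% of all genes rose. Their median log2 change was 0.60, against the -0.13 of all genes. In cluster 11 alone 11 rose and none fell (median 0.42), where 3.09% of all genes rose. Of the 42 S phase genes, 1 changed in all Stem-Progenitor cells, where 8.45% of all genes did. It was Ccne2, a cyclin of the entry into S phase (log2 change -1.01, adjusted p = 0.0299). In cluster 11, 4 of the 42 fell, where 4.65% of all genes did. Mki67 stood in cluster 11 at 335, 374, 376 and 444 CPM in WT day 10 grafts, 362, 334, 388 and 350 CPM in mutant day 10 grafts, 672 CPM in the WT day 17 graft and 702, 670 and 552 CPM in the mutant day 17 grafts. The days did not overlap, and its log2 change in all Stem-Progenitor cells was 0.90 ± 0.15 (SE, adjusted p = 0.00126). In cluster 11 alone it was 0.70 (adjusted p = 0.00087). Top2a, the other gene by which the cells were marked, had a log2 change of 0.40 (adjusted p = 0.0691).

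Ube2c, which hands ubiquitin to the anaphase-promoting complex, also rose. It stood in cluster 11 at 310, 373, 543 and 492 CPM in WT day 10 grafts, 257, 291, 372 and 332 CPM in mutant day 10 grafts, 1162 CPM in the WT day 17 graft and 651, 645 and 538 CPM in the mutant day 17 grafts. Its lowest day 17 graft was just below the highest day 10 graft. The log2 change was 1.27 ± 0.19 in all Stem-Progenitor cells (adjusted p = 0.000675) and 1.07 in cluster 11. Kif11, the kinesin that separates the spindle poles, rose by 1.20 ± 0.20 in all Stem-Progenitor cells (adjusted p = 0.0018) and by less in cluster 11 alone. In cluster 11 it ranged from 74.7 to 122 CPM in the day 10 and from 189 to 254 CPM in the day 17 grafts. The centromeric histone Cenpa (log2 change 0.90) and the kinesin Cenpe (1.03) also rose. In all Stem-Progenitor cells, 6 of the 21 genes of the spindle and kinetochore list rose and none fell (3.47% of all genes rose). Cluster 24, nearly absent at day 17, had a lower G2/M list sum than cluster 11 (4788 against 12952 CPM). The part of its fall in the changes over all Stem-Progenitor cells was not tested. As a sum, the G2/M list in cluster 11 ranged from 10705 to 14447 CPM at day 10 and from 15559 to 18278 CPM at day 17, and the S phase list from 5016 to 6250 CPM and from 4807 to 5756 CPM, the days of the second overlapping.

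Promoters of 4 G2/M genes named here are shown because they hold a pair of short words near their start that is common in this list, whereas Cenpa, also named here, holds CCAAT alone within 150 bases. They are RefSeq promoters of GRCm38.p6, the 150 bases before the start, with CCAAT and the word TTTGAA of the cell cycle homology region (CHR) in capitals on either strand, where they read ATTGG and TTCAAA. The coordinates are chr2:164769779-164769928 on the plus strand for Ube2c, chr19:37376232-37376381 on the plus strand for Kif11, chr11:99024190-99024339 on the minus strand for Top2a and chr7:135716380-135716529 on the minus strand for Mki67.
Ube2c: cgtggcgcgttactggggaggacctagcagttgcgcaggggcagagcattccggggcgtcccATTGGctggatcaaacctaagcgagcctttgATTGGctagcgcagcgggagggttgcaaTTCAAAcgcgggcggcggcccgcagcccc
Kif11: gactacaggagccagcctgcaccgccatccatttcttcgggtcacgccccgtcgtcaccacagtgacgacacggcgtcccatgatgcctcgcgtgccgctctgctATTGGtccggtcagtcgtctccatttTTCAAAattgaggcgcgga
Top2a: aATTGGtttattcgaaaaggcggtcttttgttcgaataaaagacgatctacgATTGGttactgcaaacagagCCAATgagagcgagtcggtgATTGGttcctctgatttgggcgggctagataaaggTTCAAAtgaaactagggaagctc
Mki67: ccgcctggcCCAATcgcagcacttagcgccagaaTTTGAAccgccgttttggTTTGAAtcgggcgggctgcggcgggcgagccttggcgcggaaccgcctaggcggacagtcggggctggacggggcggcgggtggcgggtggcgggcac
Of the 52 G2/M genes, 46 had a promoter in the table, and both words occurred within 250 bases upstream in 17 of them (37.0%), against 5.73% of all 27025 promoters. In the spindle and kinetochore list the pair was found in 1 of 17 promoters (5.88%). CCAAT alone was found in 35 (76.1%, against 34.5% of all) and TTTGAA in 19 (41.3%, against 16.3%). Of the 30 S phase genes with a promoter, 21 (70.0%) held CCAAT and 5 (16.7%) TTTGAA. These shares describe the sequences and were not tested.

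Inhibitors of the cycle moved in both directions. Cdkn1b, which encodes p27, rose by 1.09 ± 0.26 on the log2 scale in all Stem-Progenitor cells (adjusted p = 0.0155), with 38.5 to 80.8 CPM in cluster 11 of the day 10 grafts, 154 CPM in the WT day 17 graft and 70.5 to 97.8 CPM in the mutant day 17 grafts, the last overlapping with day 10. Cdkn2d, which encodes p19, had a log2 change of 0.95 (adjusted p = 0.0349), which did not pass in cluster 11 alone (0.71, adjusted p = 0.0902). Cdkn1a, the p53 target p21, fell by 0.87 on the log2 scale (adjusted p = 0.0451).

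Most genes of a list of Myc targets were lower at day 17. Of its 22 genes, 15 fell in all Stem-Progenitor cells and 17 in cluster 11, and none rose (median log2 change -0.91 in both), where 4.98% and 4.65% of all genes tested fell. In the other annotated T cells 14 of the 22 fell, where 17.8% of all genes did. Hspe1, the mitochondrial chaperonin HSP10, stood in cluster 11 at 1073, 963, 895 and 829 CPM in WT day 10 grafts, 1606, 912, 867 and 792 CPM in mutant day 10 grafts, 205 CPM in the WT day 17 graft and 254, 267 and 377 CPM in the mutant day 17 grafts. The days lay far apart, and the gene had a log2 change of -2.17 ± 0.19 in all Stem-Progenitor cells (adjusted p = 8.26e-06). Its partner Hspd1 had a change of -1.73. Nucleolin (Ncl), which helps to process ribosomal RNA, ranged from 1290 to 2135 CPM in the day 10 grafts of cluster 11 and from 930 to 1002 CPM in the day 17 grafts (log2 change -0.95). Nucleophosmin (Npm1) had a change of -0.88 in all Stem-Progenitor cells. The chaperone of the endoplasmic reticulum Hspa5 (BiP) ranged from 970 to 1438 CPM at day 10 and from 355 to 622 CPM at day 17 in cluster 11, with a log2 change of -1.39 ± 0.14 in all Stem-Progenitor cells (adjusted p = 1.24e-05). The cytosolic chaperones Hsp90aa1 (-1.60) and Hsp90ab1 (-1.27) fell too, and like Hspa5 are not among the 22 genes of the list. Of 19 glycolysis genes tested, 6 fell and none rose in all Stem-Progenitor cells (4.98% of all genes fell) and 4 fell in cluster 11 (4.65% of all genes), among them hexokinase 2 (Hk2, log2 change -1.36, adjusted p = 0.00497) and lactate dehydrogenase A (Ldha, -0.60, adjusted p = 0.0053).

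Among effector genes, granzymes A and B fell within the T cell-like cluster. Gzmb stood in cluster 11 at 1186, 1053, 1179 and 865 CPM in WT day 10 grafts, 1174, 1519, 1640 and 1879 CPM in mutant day 10 grafts, 353 CPM in the WT day 17 graft and 676, 796 and 531 CPM in the mutant day 17 grafts. No day 17 graft reached the lowest day 10 graft (log2 change -1.53 ± 0.16, adjusted p = 4.16e-06). Gzma fell by 2.27 on the log2 scale in cluster 11 (adjusted p = 1.51e-05), where it stood at 1019 to 2671 CPM at day 10, 125 CPM in the WT day 17 graft and 727 to 1335 CPM in the mutant day 17 grafts, which overlapped with day 10. The log2 change of Gzma was -3.65 in WT (adjusted p = 0.000315) and -0.89 in mutant grafts (adjusted p = 0.0345). Over all Stem-Progenitor cells 4 of 16 cytotoxic genes fell (4.98% of all genes did), Gzma, Gzmb, Gzmc and Prf1. In cluster 11 alone Gzmc (log2 change -1.47, adjusted p = 0.136) and Prf1 (-0.73, adjusted p = 0.46) had changes in the same direction that did not pass. Cluster 24, which carries both, was nearly absent at day 17, and the part of its fall in these changes was not tested. In cluster 11, Ctsw, a protease of killer cell granules, rose (log2 change 0.54, adjusted p = 0.044).

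Activation genes of T cells were mixed. Il2ra, the high-affinity subunit of the interleukin 2 receptor, fell by 1.26 on the log2 scale in cluster 11 (adjusted p = 0.0319), with 106 to 266 CPM in the day 10 grafts, 57.0 CPM in the WT day 17 graft and 220, 60.4 and 90.8 CPM in the mutant day 17 grafts. The costimulatory receptor Tnfrsf9 (4-1BB) had a log2 change of -0.79 in cluster 11 (adjusted p = 0.023). Csf2, which encodes GM-CSF and was chosen after its values were seen, had 238 UMIs in cluster 11 at day 10 (38.0 CPM) and 0 at day 17, at least 8.06-fold lower when 3 UMIs over the day 17 cells are taken as the floor. Of 11 genes of an inhibitory receptor list tested in all Stem-Progenitor cells, 2 rose and 1 fell, where 3.47% of all genes rose and 4.98% fell. Ctla4 (log2 change 1.03, adjusted p = 0.025) and the nuclear receptor Nr4a2 (0.93, adjusted p = 0.0053) rose and Havcr2, which encodes TIM-3, fell (-0.88, adjusted p = 0.0126). Ctla4 and Havcr2 did not pass in cluster 11 alone (adjusted p = 0.105 and 0.0542). Satb1 (0.91) and Lef1 (0.60), transcription factors of naive and memory T cells, rose in all Stem-Progenitor cells, but Lef1 did not pass in cluster 11 alone (adjusted p = 0.0713).

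Runx1, Tnfaip3, Pdcd4 and Kdm2b were among the 10 genes with the smallest p of those that rose. Runx1, a transcription factor of T cell development, stood in cluster 11 at 108, 110, 99.5 and 128 CPM in WT day 10 grafts, 79.5, 111, 107 and 99.7 CPM in mutant day 10 grafts, 461 CPM in the WT day 17 graft and 372, 484 and 328 CPM in the mutant day 17 grafts. The lowest day 17 graft was well above the highest day 10 graft (log2 change 1.92 ± 0.15, adjusted p = 4.83e-08). Tnfaip3, the A20 brake on NF-kB signalling, rose by 1.98 in cluster 11, from 42.9 to 93.0 CPM over the day 10 grafts to 161 to 387 CPM over the day 17 grafts. Pdcd4, an inhibitor of translation initiation, rose by 1.19 (adjusted p = 2.38e-05), from 114 to 191 CPM over the day 10 grafts to 330 to 399 CPM over the day 17 grafts. Kdm2b, a histone demethylase, rose by 1.36, from 107 to 138 CPM to 307 to 363 CPM. Mt1 fell by 2.74 on the log2 scale, from 485 to 1359 CPM over the day 10 grafts to 51.3 to 413 CPM over the day 17 grafts.

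**Figure D5:**
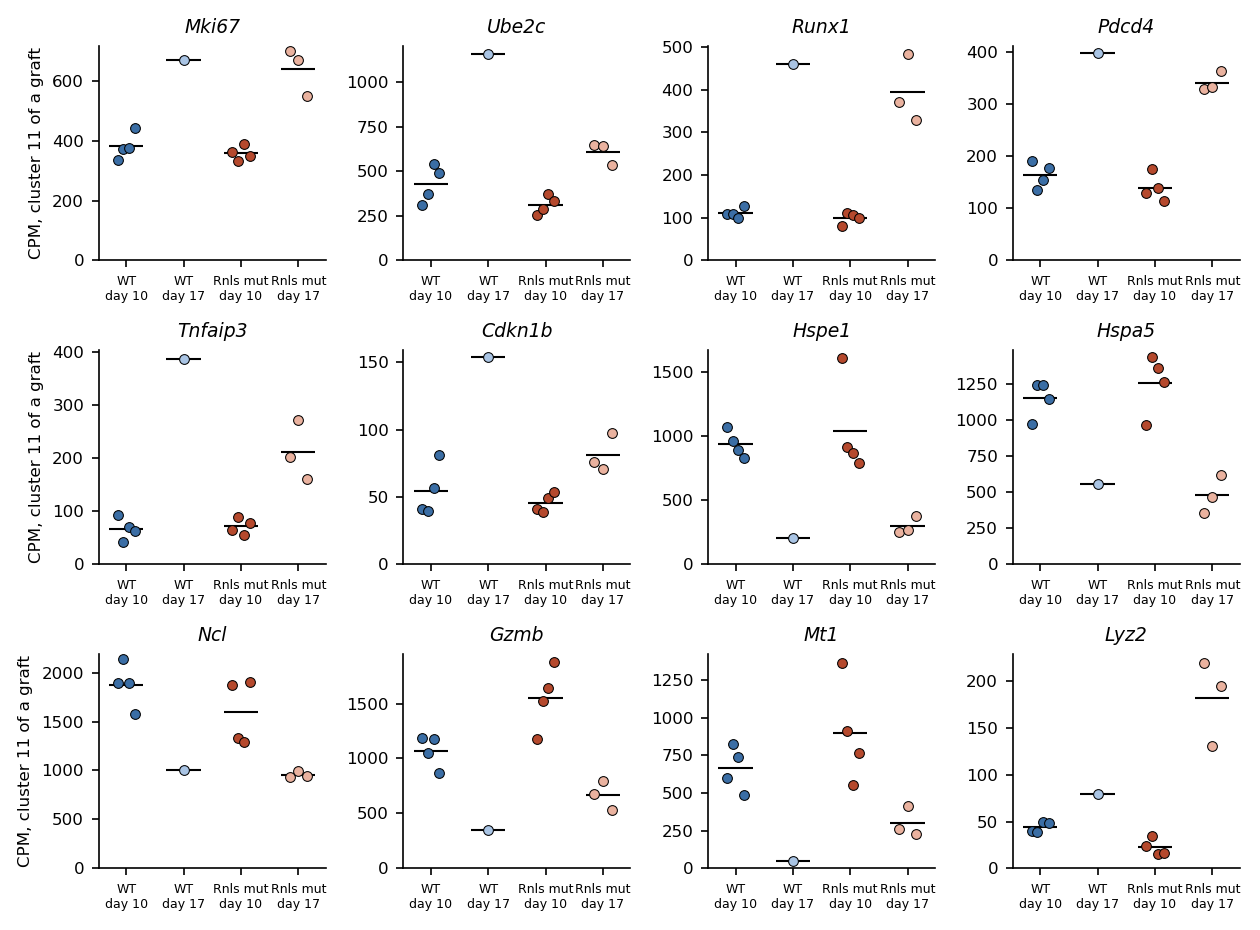
Levels (CPM, vertical axes) of 12 genes in cluster 11, with 1 point per graft and a bar at the mean, in the 4 groups (horizontal axis; 4 WT and 4 Rnls mutant grafts at day 10, 1 WT and 3 mutant at day 17). Mki67, Runx1, Pdcd4 and Tnfaip3 are higher and Hspe1, Hspa5, Ncl and Gzmb lower in each day 17 graft than in each day 10 graft.

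Macrophage transcripts moved with the day in these cells as well. The myeloid list summed in cluster 11 to 61.0 to 98.5 CPM in WT day 10 grafts, 40.4 to 64.2 CPM in mutant day 10 grafts, 154 CPM in the WT day 17 graft and 217 to 406 CPM in the mutant day 17 grafts. Of its 10 genes, 5 could be tested in all Stem-Progenitor cells and 2 rose, where 3.47% of all genes did. These were Lyz2, a lysozyme (log2 change 1.93, adjusted p = 0.000398), and the complement gene C1qa (3.06, adjusted p = 0.0155). In the other annotated T cells, in which 19.2% of all genes tested rose, 7 of 8 rose, among them Lyz2 by 1.68. The part of these transcripts in the other day changes was not tested. Wfdc17 (3.46), also a myeloid gene, and H2-Aa (1.50), a chain of MHC class II, rose with them. Pecam1, the CD31 adhesion molecule and the only gene of a stroma list that could be tested, rose by 2.26 in cluster 11. It stood there at 12.8 to 42.7 CPM in the day 10 grafts, 256 CPM in the WT day 17 graft and 76.1, 40.3 and 140 CPM in the mutant day 17 grafts, of which 1 overlapped with day 10. In mutant grafts alone its log2 change was 1.51 (adjusted p = 0.0617).

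The other annotated T cells of the grafts changed more broadly between days, with 3410 of 9204 genes (37.0%) called, from far more cells. Which day changes differed between cluster 11 and those T cells was tested directly, as an interaction with the graft as a block, and 95 of 9781 genes (0.971%) passed, 79 (0.808%) with a higher and 16 (0.164%) with a lower change in cluster 11. Ube2c was among the first, with a log2 change of 1.07 in cluster 11 and -1.35 in the other T cells (difference 2.44). Kif11 (0.94 and -0.86, difference 1.97) and Prc1, which bundles the spindle midzone (difference 1.10), behaved in the same direction. Cycle genes such as Ube2c were among those most above the T cells in cluster 11, and the clusters were made from such genes. The differences of these cycle genes are therefore a description and not support from a test. In the other T cells, 4 of the 31 G2/M genes tested rose and 8 fell, where 19.2% of all genes rose and 17.8% fell.

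Several of the strongest day genes were also set apart from the other T cells. Runx1 rose by 1.92 in cluster 11 and by 0.62 in the other T cells (difference 1.12 in the joint fit, adjusted p = 4.12e-05), and Pdcd4 by 1.19 against a change of -0.07 (difference 1.31, adjusted p = 3.83e-06). The cytosolic chaperones Hsp90aa1 (-1.68 against -2.75, difference 1.20) and Hspa8 (-0.65 against -1.53, difference 0.92, adjusted p = 1.75e-05) fell less in cluster 11, whereas Hspa5 fell more (-1.33 against -0.93, difference -0.51, adjusted p = 0.0468). TIM-3 (Havcr2) had a change of -0.64 in cluster 11 and -2.02 in the other T cells (difference 1.83, adjusted p = 1.75e-05). Gzmb fell in both, and less in cluster 11 (difference 1.09, adjusted p = 9.07e-05). Cyclin D2 (Ccnd2), which drives entry into the cycle, fell by 1.77 in cluster 11 against a change of -0.09 (difference -1.50). The NK cells of the grafts gave a log2 change of 0.48 for Gzmb (adjusted p = 0.375) and 0.06 for Gzma (adjusted p = 0.887).

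The genes called between WT and Rnls mutant grafts depended on the settings. Within WT, 147 of 9132 genes (1.61%) changed between days and within mutant 488 (5.34%), and 0 genes passed the test of the difference between these changes (694 at an unadjusted p under 0.05 in edgeR, and 6 at an adjusted p of 0.05 in DESeq2). In cluster 11 alone the counts were 173 (2.06%) in WT and 290 (3.46%) in mutant, and Gm10076 was the only gene past the test of the difference (0.0119%). The 520 cells of the wider T cell list gave 139 of 7950 genes (1.75%) in mutant grafts. At day 10, 5 genes (0.0548%) differed in all Stem-Progenitor cells, against 49 by DESeq2, 106 with the hashtag number as a block, 216 without WT graft 1 and 0 with a minimum of 1 cell per graft. Bnip3, a mitochondrial protein induced by low oxygen, was the only one higher in mutant grafts (0.0110% of genes, log2 difference 2.22), with 34.1, 34.2, 28.0 and 13.1 CPM in cluster 11 against 7.62, 2.18, 6.63 and 5.13 CPM in WT. Hist1h2ap (-1.18), Gm10076 (-0.78), Sema3c (-1.35) and Lyz2 (-1.27) were lower (0.0438%). Hist1h2ap shared all of its transcript-end words with Hist1h2ao and Gm10076 shared 82.2% with the ribosomal protein gene Rpl41, so these counts may be split between copies. In cluster 11, 8 genes (0.0953%) differed at day 10 (35 by DESeq2), with Bnip3 and Smad7 higher (0.0238%) and Gm10076, Hist1h2ap, Rpl35, Rps29, mt-Atp8 and Gm10260 lower (0.0715%) in mutant grafts. At day 17, with 1 WT graft, 0 genes differed in all Stem-Progenitor cells (629 at an unadjusted p under 0.05 in edgeR, and 2 in DESeq2), and in cluster 11 Gzma alone did (0.0119% of genes, log2 difference 3.09, adjusted p = 0.04). The WT side of that call is 1 graft with 12 cells, no gene was called without mutant day 17 graft 1 or graft 2, and DESeq2 called 7.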

How the data were processed

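CD45+ cells of 16 grafts were profiled with the 10x Genomics 3′ v3.1 chemistry and hashtags. The deposited table held UMI counts for each gene and cell without normalization, and a second table gave each cell's library, hashtag, cluster and cell type as the authors assigned them. The submitters' processing notes name Cell Ranger and mm10. Cell filters, clustering and doublet removal are not given in the sources used here. No doublet caller was run, and alternatives left out the 10% of cells with most UMIs (83 cells) or the 283 cells with transcripts of several lineage lists. All counts were whole numbers, and the lowest cell of the whole table held 1001 UMIs.

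The members and gene lists were chosen with earlier results of these data known. Stem-Progenitor cells were taken from the authors' annotation, and grafts from library and hashtag. Counts were summed per graft where at least 10 cells were present and tested with edgeR 4.0.16 (filterByExpr, TMM, glmQLFit, glmQLFTest) in R 4.3.3 with limma 3.58.1, fitting the 4 genotype and day groups. WT day 17 had 1 graft, assumed to vary like the others. DESeq2 1.42.0 was an alternative, as were no filter on low counts, a minimum of 1 or 20 cells, other UMI limits and denominators, the hashtag number as a block, and each graft left out in turn. Alternatives by single cluster or by Cd3e and Trac, and the comparison of cluster 11 with other T cells in place of T class cells, were added after the data were seen. The planned T class comparison could not be fitted, because no WT day 17 graft held 10 such cells. Shares were compared with exact permutation tests in Python 3.11.15 (SciPy 1.17.1, NumPy 2.4.6, pandas 2.3.3). The WT and mutant grafts of a day came from the same 4 mice per the study's description of its paired replicates, but nothing says which grafts shared a mouse. The gene tests and the 4900 assignments treat grafts as independent, p-values measure the spread between grafts of single libraries, and a share test that keeps the grafts of a mouse together was added after the data were seen. In all Stem-Progenitor cells, same-numbered day 10 grafts of the 2 genotypes had correlations of their deviations of 0.394, 0.00077, 0.126 and 0.0743. Differently numbered ones ranged from -0.274 to 0.167. The grafts numbered 1 lay above that range and the others within it. Whether the numbers pair grafts is thus undecided, and they were not taken to do so.

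Genes were named by rule: lineage and cycle markers, at most 10 per direction by smallest p over both genotypes and 5 in other contrasts, at most 4 per list and direction, and the 10 leading genes of each cluster and of all 830 cells by CPM ratio (100 CPM or more, 10 CPM added). Genes that set cluster 11 apart from T cells or cluster 24 from NK cells, the neighbours of the granzyme genes, Csf2, and interaction values of genes named elsewhere were given after their values were seen. Limits for a count of 0 used 3 counts and cover counting error only.

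The test was run on counts simulated with log2 changes of 1.5. It recovered 97 of 186 changed genes (52.2%) with 5 false calls among 8545 genes for all Stem-Progenitor cells between days, and 123 of 189 (65.1%) with 8 among 7748 for cluster 11.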

Additional observations from a re-analysis of the deposited data

Results flagged for a closer look

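Of 66 groups of 4 grafts that were looked at for a graft far from the others, 10 gave one, and chance gives about 1 in 20. WT graft 4 at day 10 had the lowest share of Stem-Progenitor cells in its group (4.88% of CD45+ cells). Graft 1 stood apart for cluster 24 in both genotypes at day 10. In WT it had 2.14% of CD45+ cells and 37.4% of the Stem-Progenitor cells in cluster 24, and in the Rnls mutant 4.33% and 55.8%. Among WT day 17 grafts, graft 3 stood apart with 0.180% of CD45+ cells in cluster 24 and 7.41% of cluster 24 and NK cells together, which were 2 cells. In all Stem-Progenitor cells of the mutant day 10 grafts, single grafts stood apart for Hsp90ab1 (3887 CPM), Hspe1 (1331 CPM) and Pdcd4 (127 CPM).

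The change between days differed between mutant and WT in cluster 11 for 1 gene, Gm10076 (difference of log2 changes 1.72), which shares transcript-end sequence with Rpl41. It stood at 874 to 976 CPM in WT and 482 to 565 CPM in mutant grafts at day 10, and at 234 CPM in the WT graft and 393 to 468 CPM in the mutant grafts at day 17.

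The change between days differed between cluster 11 and the other annotated T cells for 95 genes (0.971%). The 5 with the smallest p and a higher change in cluster 11 were Hspa8 (0.92), Havcr2 (1.83), Pdcd4 (1.31), Crip1 (0.91) and Ctla2a (1.18). The 5 with a lower change were Tox (-2.53), Zgrf1 (-1.89), Ccnd2 (-1.50), Adk (-1.38) and Srsf7 (-0.73). Tox, a regulator of exhausted T cells, had a log2 change of 1.36 in the other T cells and -1.24 in cluster 11 (adjusted p = 0.471 in edgeR's test), where its level was 5.70 CPM in the WT day 17 graft (1 UMI) and 67.6, 15.1 and 83.8 CPM in the mutant day 17 grafts.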

How the results depend on the processing

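The fall of the Stem-Progenitor share kept its direction and its test over both genotypes under every alternative run, between -4.85 and -3.97 points with single grafts left out, and at p = 0.0286 with the grafts of a mouse permuted together (exact permutation test, under each pairing of the grafts). In mutant grafts alone it was -4.84 points with T, NK and Stem-Progenitor cells as the denominator (p = 0.0857, exact permutation test) and -4.73 to -2.96 points with single grafts left out. The genotype difference at day 10 was 0.904 points for cluster 24 alone, opposite to all Stem-Progenitor cells, and ran from -1.57 to 0.199 with single grafts left out, turning without mutant graft 2. The share of cluster 24 within Stem-Progenitor cells changed in mutant grafts by -29.4 points with a minimum of 20 cells (p = 0.4, exact permutation test) and by -26.9 to -14.8 with single grafts left out. That share differed between genotypes at day 10 by 6.69 to 23.3 points, and between days over both by -20.4 to -14.3 points. The share of T class cells changed between days by -23.2 points with 3 UMIs, -0.517 with 5 UMIs, 12.2 after thinning to 3000 UMIs and 10.5 from Cd3e and Trac, and by -27.8 to -18.5 without single grafts, so no direction is read from it. The NK class changed by -3.14 points with 3 UMIs, -1.86 with 2, -3.96 with 5 and -8.06 after thinning, and by -3.42 to -2.59 without single grafts. The S phase list over all Stem-Progenitor cells changed by 344 CPM as a sum and by -187 as a mean over cells.

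Counts of called genes depended on the settings. Within WT, 147 genes became 221 by DESeq2, 362 without the filter, 301 with a minimum of 1 cell and 86 to 191 with single grafts left out (86 without WT day 10 graft 2, 95 without graft 3). Within mutant, 488 became 791 without the filter, 104 with a minimum of 20 cells, 124 without cells of several lineage lists and 169 to 532 with single grafts left out (169 without mutant day 17 graft 2, 251 without graft 1, 307 without mutant day 10 graft 1). In cluster 11 of mutant grafts, 290 became 463 without the filter and 93 to 316 with single grafts left out (93 without mutant day 17 graft 2, 159 without graft 1, 158 and 148 without day 10 grafts 1 and 4), and in T class cells 139 became 290 without the filter. In cluster 11 of WT grafts, 173 became 312 without the filter and 109 to 206 with single grafts left out (109 without WT day 10 graft 2). Also in cluster 11, the 1 gene that differed in day change became 10 by DESeq2, 33 without the filter, 2 with the replicate block and 1 to 2 with single grafts left out, the 8 genes at day 10 became 35, 102 and 4 to 20 (20 without mutant graft 4, 4 without WT graft 2, 5 without WT graft 3 or 4), and the 1 gene at day 17 became 7, 27 and 0 to 4 (0 without mutant day 17 graft 1 or 2). The difference in day change (0 genes) became 6 by DESeq2, 35 without the filter, 3 with a minimum of 1 cell and 0 to 1 with single grafts left out. The genotype difference at day 10 (5 genes) became 49, 323 and 0 under the first 3 of these settings, 3 with a minimum of 20 cells and 2 to 216 with single grafts left out (216 without WT graft 1, 29 without mutant graft 4). At day 17 (0 genes) it became 2, 40, 1 and 0 to 1. The cause of these shifts was not tested. Over both genotypes, 772 genes became 584 to 752 with single grafts left out, but every setting without the lone WT day 17 graft left that comparison without a value.

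With the hashtag number as a replicate block, counts were 908 over both genotypes, 249 in WT, 566 in mutant, 2 for the difference in day change, 106 at day 10 and 5 at day 17, and in cluster 11 546 over both and 242 in mutant. The T class gave 149. The numbers share no stated origin. Of the genes named for the day contrast, 52 of 55 stayed called with the block, 54 of 54 by DESeq2, 54 of 55 without the filter, 52 of 55 without the cells with most UMIs, 48 of 54 with a minimum of 1 cell and 48 to 54 of 55 with single grafts left out (48 without mutant day 17 graft 1, 49 without graft 2), and none reversed. The day 17 groups held 19 WT and 60 mutant cells, and a gene not called there is not shown to be equal.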
